A study of Mus musculus with 9 samples.

Results

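The lysyl oxidase family comprises the genes Lox, Loxl1, Loxl2, Loxl3 and Loxl4. All 5 were looked up by symbol in the deposited expression table of 17730 genes, and all 5 were found. The family was proposed for description after the contrast between the groups had been seen, so its values in that contrast are given as a description and without a test.

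The RNA came from astrocytes isolated at postnatal day 0 from wild-type C57BL/6 mouse brain. The cells had received medium conditioned by microglia (MCM), and the microglia had been stimulated beforehand with lipopolysaccharide (LPS-MCM, 3 libraries) or with hemin, a breakdown product of hemoglobin (Hemin-MCM, 3 libraries). The third group of the series, which received medium of resting microglia, was not analysed here, so every difference is LPS-MCM against Hemin-MCM and can come from a change in either. The labels name no separate cultures or animals for the libraries of a group, and any p-value therefore measures a spread between libraries that may be technical.

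Lysyl oxidases are secreted copper enzymes that oxidize the amine of lysine side chains in collagen and elastin. The aldehydes that result condense into the covalent crosslinks that make collagen fibrils and elastic fibres stiff and insoluble. Lox is the founding member and its proenzyme is cut by the protease BMP1. Loxl1 is closest to it in sequence and is known for its part in elastic fibre upkeep, while Loxl2, Loxl3 and Loxl4 form a second branch that carries scavenger receptor domains ahead of the catalytic domain.

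The copper-binding site, a stretch of coding sequence that every member carries, shows how close the members are. It is shown because similar stretches are where reads of one member could be counted for another. Capitals mark the 4 histidine codons of the site, and the sequences are coding strand, 5′ to 3′, from GENCODE vM21 transcripts on GRCm38.
Loxl1: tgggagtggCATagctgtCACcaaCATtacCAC
Loxl2: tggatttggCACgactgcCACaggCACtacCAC
Loxl3: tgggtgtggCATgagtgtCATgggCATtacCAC
Loxl4: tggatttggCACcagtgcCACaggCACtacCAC
Of the 33 bases, Lox and Loxl1 had 32 in common and Loxl2 and Loxl4 had 31, whereas Loxl1 and Loxl4 had 21. Loxl3 had 25 in common with each of Loxl1, Loxl2 and Loxl4. The Lox stretch encodes the same 11 residues as that of Loxl1, and those of Loxl2, Loxl3 and Loxl4 each match Loxl1 at 8 residues. Over whole transcripts, Lox and Loxl1 shared 2 stretches of 31 bases among 4748 and 3267, and no other pair of members shared any, so few fragments can match more than 1 member.

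The genes lie on 5 different chromosomes (RefSeq, GRCm38.p6). Lox (gene ID 16948) spans chromosome 18, 52516060 to 52529867, on the minus strand, and Loxl1 (16949) chromosome 9, 58287723 to 58313212, also minus. Loxl2 (94352) spans chromosome 14, 69608692 to 69695834, on the plus strand. Loxl3 (16950) spans chromosome 6, 83034205 to 83052566, on the plus strand, and Loxl4 (67573) chromosome 19, 42592279 to 42612806, on the minus strand.

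Levels are FPKM, the fragments of a gene divided by transcript length in kilobases and by library depth, which are per length and can be compared between genes of a library. A library summed to between 348382.7 and 359093.4 FPKM. Its depth, estimated from the steps between low values, was 34800000 to 38300000 fragments. Across genes, libraries of 1 group correlated at 0.997 to 0.998 and libraries of different groups at 0.991 to 0.993 (Pearson, log2 scale). Differences are given as LPS-MCM minus Hemin-MCM on the log2(FPKM + 1) scale, with the standard error (SE) from limma, and they understate the change of low genes. A gene was called where limma's Benjamini-Hochberg adjusted p was under 0.05, adjusted over the 11688 genes that averaged 1 FPKM or more.

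The level of Lox stood apart between the media. It was 21.9, 23.1 and 22.3 FPKM in the LPS-MCM libraries and 5.29, 8.12 and 5.81 FPKM in the Hemin-MCM libraries. The groups did not overlap, and the lowest LPS-MCM library stood well above the highest Hemin-MCM library. The means were 22.4 ± 0.576 and 6.41 ± 1.504 FPKM (SD, n = 3 each), a ratio of 3.50, and the difference was 1.68 ± 0.12 (SE). By size of difference Lox took place 35 among the 11688 tested genes. In bulk libraries such as these, fewer cells of a type and less RNA per cell cannot be told apart.

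The 3 LPS-MCM libraries lay close together for Lox, with a coefficient of variation of 2.57%, whereas it was 23.5% in Hemin-MCM. The second Hemin-MCM library held the highest Lox level of its group. Without it the ratio of means was 4.04 and the difference 1.84. The same library was also the highest of its group for the genes of type I and type III collagen, though not for every fibril collagen. Col1a1 was at 8.86 FPKM there and at 3.39 and 3.29 FPKM in the other Hemin-MCM libraries, Col1a2 at 10.1 against 4.38 and 4.36 FPKM, and Col3a1 at 3.35 against 0.997 and 1.33 FPKM. Col11a1 was lowest there, at 9.26 against 10.54 and 10.44 FPKM. The part of that library's other features in the Lox level was not tested.

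Loxl1 was the most abundant member in all 6 libraries. Its level was 30.2, 32.7 and 31.8 FPKM in LPS-MCM and 31.3, 34.7 and 34.8 FPKM in Hemin-MCM. The ranges overlapped, the means were 31.6 ± 1.30 and 33.6 ± 1.99 FPKM, and the difference was -0.09 ± 0.06 (SE).

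Loxl2, which crosslinks type IV collagen of basement membranes, was at 11.1, 9.76 and 10.4 FPKM in LPS-MCM and at 8.81, 9.15 and 10.1 FPKM in Hemin-MCM. One Hemin-MCM library lay within the LPS-MCM range, and the difference was 0.14 ± 0.07 (SE). Loxl3, which is needed for palate and spine development in mice, was at 9.13, 10.6 and 8.54 FPKM in LPS-MCM and at 8.98, 9.05 and 10.8 FPKM in Hemin-MCM. These ranges overlapped nearly in full, and the difference of -0.03 ± 0.09 (SE) changed its sign under 4 alternatives. It was 0.02 under median-of-ratios scaling and under quantile normalization, 0.03 without LPS-MCM library 3 and 0.05 without Hemin-MCM library 3.

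Loxl4 was the scarcest member, at 0.974, 1.04 and 0.849 FPKM in LPS-MCM and 1.00, 0.997 and 1.05 FPKM in Hemin-MCM. The groups overlapped. Its mean over the 6 libraries, 0.986 FPKM, was just under the minimum of 1 FPKM, so it was the 1 member of 5 that did not enter the fit. Its difference was -0.05 ± 0.05 (SE from the fit without that minimum).

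**Figure D1:**
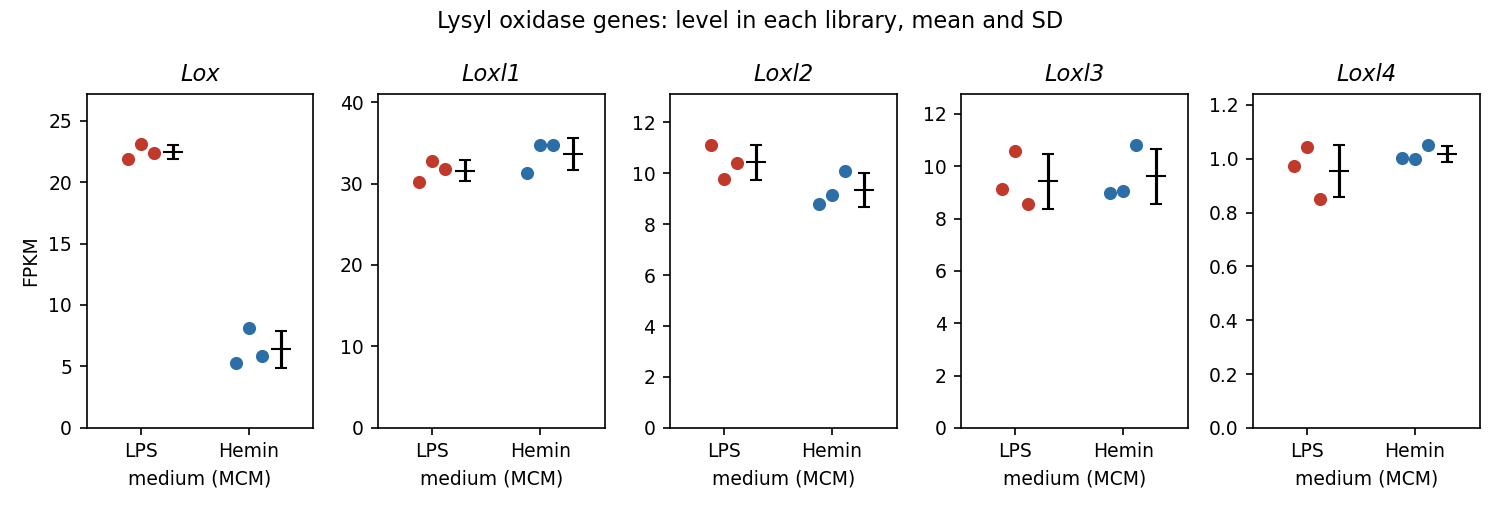
Level of each lysyl oxidase gene (FPKM, vertical axis from 0, a scale of its own for each gene) in the 3 LPS-MCM (red) and 3 Hemin-MCM (blue) libraries. Bars give the mean and SD. Lox sits at 21.9 to 23.1 FPKM in LPS-MCM and at 5.29 to 8.12 FPKM in Hemin-MCM, and the ranges of the other 4 genes overlap.

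Library ranges were separate for 1 of the 5 members, Lox, beside 37.5% of all tested genes in either direction and 12.8% with LPS-MCM higher. Of the 4 members in the fit, 1, Lox, differed by at least 2-fold, beside 1.1% of all tested genes in either direction and 0.556% with LPS-MCM higher. Because the family was proposed from this contrast, nothing is read from these counts.

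The order of the members by level was not the same in both media. In Hemin-MCM it ran from Loxl1 through Loxl3, Loxl2 and Lox to Loxl4, and in LPS-MCM Lox stood second, after Loxl1. Lox was below Loxl2 and below Loxl3 in all 3 Hemin-MCM libraries, at 0.576 to 0.887 times Loxl2, and above both in all 3 LPS-MCM libraries, at 1.97 to 2.36 times Loxl2. Loxl2 and Loxl3 were neighbours in both orders and did not separate beyond their spread, with a ratio of 0.921 to 1.22 in LPS-MCM libraries and 0.931 to 1.01 in Hemin-MCM. Loxl1 exceeded Lox 1.38 to 1.42 times in LPS-MCM libraries and 4.28 to 5.99 times in Hemin-MCM. Loxl3 exceeded Loxl4 between 8.96 and 10.3 times over all 6 libraries.

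Lox made up a different portion of the family's RNA. Its share of the summed FPKM of the 5 genes was 29.9, 29.9 and 30.2% in LPS-MCM and 9.56, 13.1 and 9.29% in Hemin-MCM. The share of Loxl1 was 42.2 ± 0.953% and 56.0 ± 0.453% (SD, n = 3 each). The sum of the 5 genes was 73.3 to 77.2 FPKM in LPS-MCM and 55.4 to 62.6 FPKM in Hemin-MCM. Leaving Lox out of the sum gave 51.4 to 54.1 and 50.1 to 56.8 FPKM, ranges that overlap.

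**Figure D2:**
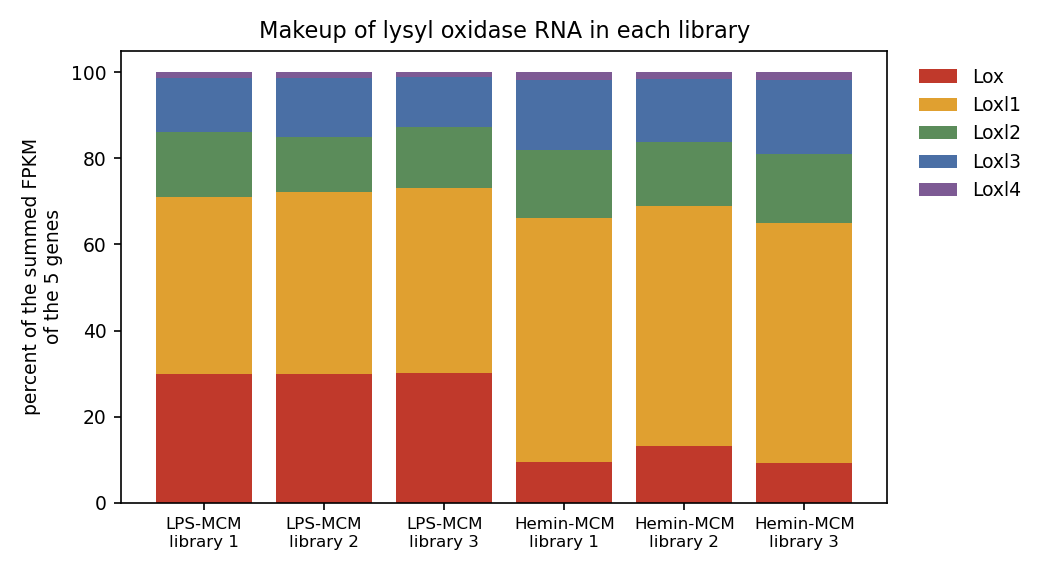
Percent of the summed FPKM of the 5 lysyl oxidase genes (vertical axis) taken by each gene in each of the 6 libraries. The Lox segment is 29.9 to 30.2% in LPS-MCM libraries and 9.29 to 13.1% in Hemin-MCM.

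**Figure D3:**
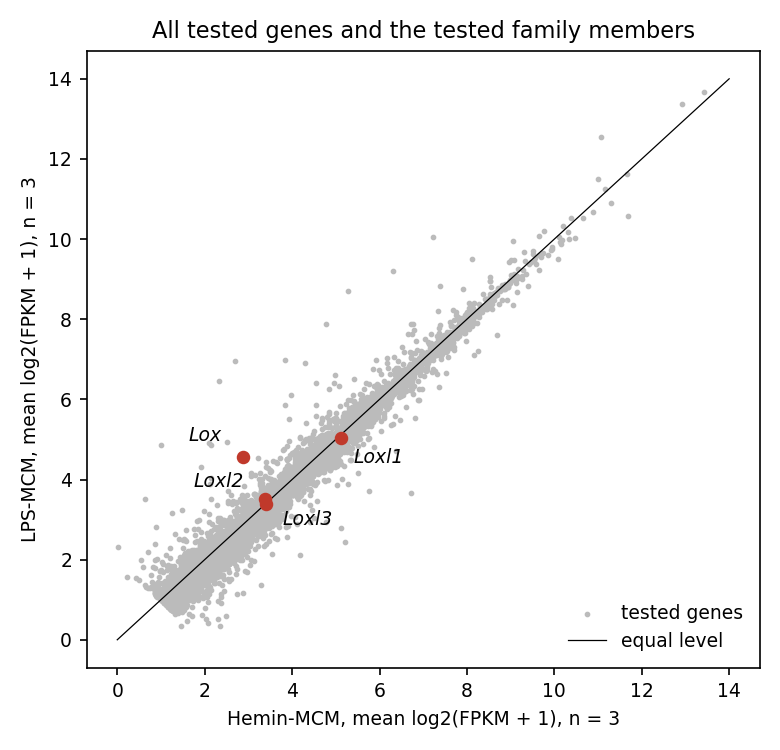
Mean log2(FPKM + 1) over 3 LPS-MCM libraries (vertical) against 3 Hemin-MCM libraries (horizontal) for the 11688 tested genes (grey), with the 4 tested family members in red and a line of equal level. Lox lies 1.68 above the line, and Loxl1, Loxl2 and Loxl3 differ from it by at most 0.14.

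The genes whose profile was nearest to that of Lox were Slfn1, Saa3, Mmp8, Mmp12 and Cxcl1, by Euclidean distance over the 6 libraries after each gene's own mean on the log2 scale had been removed. The distances were 0.255 for Slfn1, 0.331 for Saa3, 0.364 for Mmp8, 0.432 for Mmp12 and 0.458 for Cxcl1, where the median over all tested genes was 2.15. Mmp8 and Mmp12 encode matrix metalloproteinases, a collagenase and a macrophage elastase, Saa3 an acute-phase protein and Cxcl1 a chemokine for neutrophils. Chosen for their likeness to Lox, they share its separation between the media by construction, and none of their differences is tested here.

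Mmp12 was at 98.6, 92.8 and 97.8 FPKM in LPS-MCM and at 31.7, 30.8 and 29.3 FPKM in Hemin-MCM. Mmp8 was at 15.2, 15.1 and 16.1 FPKM and at 3.27, 3.91 and 3.13 FPKM. Slfn1 was at 3.73, 4.79 and 4.14 FPKM in LPS-MCM and at 0.610, 1.23 and 0.652 FPKM in Hemin-MCM. In Lox, Slfn1, Saa3, Mmp8 and Cxcl1, the second library was the highest of Hemin-MCM, and in Mmp12 it was not.

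**Figure D4:**
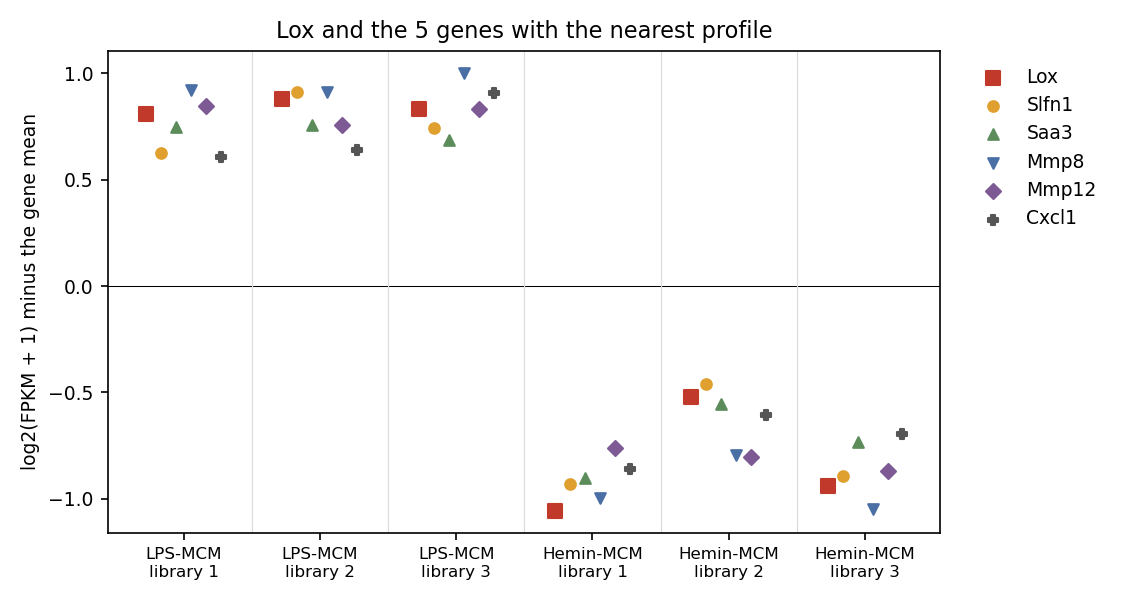
Log2(FPKM + 1) minus each gene's mean over the 6 libraries (vertical axis) for Lox and the 5 genes with the nearest profile, by library (horizontal axis). All 6 genes lie above 0 in LPS-MCM and below 0 in Hemin-MCM, and Slfn1, the nearest at a distance of 0.255, shares the higher second Hemin-MCM library with Lox.

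The nearest profiles to the other tested members were flatter, as they must be when chosen for likeness to members with small differences. By the same rule Hpgds and Ambra1 were nearest to Loxl1 (distances 0.0249 and 0.034), Zfpm2 and Faim to Loxl2 (0.0696 and 0.0701), and Csrnp2 and Klf15 to Loxl3 (0.056 and 0.0691). The median distance over all genes was 0.281, 0.363 and 0.381, so many genes lay close to these profiles.

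Genes next to the family on the chromosomes were compared with it, taking on each side the nearest gene that has a row in the table. Srfbp1, on one side of Lox at 24126 bases, was at 5.40 ± 0.489 FPKM in LPS-MCM and 4.84 ± 0.0714 FPKM in Hemin-MCM, and did not pass (0.13 ± 0.07, SE; limma adjusted p = 0.254). Zfp474, on the other side at 86038 bases, was under 1 FPKM in both groups. Of the 8 neighbours of the other members, 7 were tested and 1 passed, beside 20.5% of all tested genes. That gene, Pyroxd2, lies 113050 bases from Loxl4 and was lower in LPS-MCM (-0.40 ± 0.08, SE; limma adjusted p = 0.00522). Loxl3 overlaps Htra2 by 1301 bases and Loxl4 ends 4 bases from R3hcc1l. The library kit kept strand, but whether the counting used it is not given in the sources used here, so reads in such places can be uncertain.

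The genes around the enzymes were grouped by role into 9 lists of 109 genes, of which 108 had a row and 93 were tested. Of these, 18 were higher in LPS-MCM, 12 were lower and 63 did not pass. That is 32.3% called, where 20.5% of all tested genes were called (6.72% higher, 13.8% lower). The lists were chosen with earlier results of these data known, so nothing is read from the gap between these shares. The median difference was -0.01 over the lists and -0.04 over all tested genes. Another scaling between libraries shifted the division of all calls, of which 32.8% were higher in LPS-MCM, to 49.9% with median-of-ratios factors and 45% with quantile normalization.

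Among the substrates of the enzymes, the Col4a1 and Col4a2 chains of type IV collagen, the collagen of basement membranes, were higher in LPS-MCM. Col4a5 and Col4a6, further type IV chains that the list did not hold, did not pass (differences -0.03 and -0.10, limma adjusted p 0.714 and 0.224). Of 11 tested collagen and elastin genes, 3 were higher, 1 was lower and 7 did not pass, with a median of -0.21. Col4a1 was at 64.6, 62.1 and 63.2 FPKM in LPS-MCM and at 46.7, 48.4 and 48.6 FPKM in Hemin-MCM. It was higher in each LPS-MCM library than in any Hemin-MCM library (0.39 ± 0.05, SE; limma adjusted p = 0.000194). Col4a2, the partner chain, was higher by 0.24 ± 0.07 and Col5a1 by 0.28 ± 0.06, and Col5a2 was lower by a difference of -0.19 ± 0.05. The call of Col4a2 was lost under 4 of 11 alternatives (limma adjusted p 0.00812 to 0.0971 over all of them), namely without the minimum of 1 FPKM and without LPS-MCM library 3, Hemin-MCM library 1 or Hemin-MCM library 3. That of Col5a2 was lost under 3 (0.0154 to 0.087), namely with median-of-ratios scaling and without Hemin-MCM library 2 or 3.

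The classic substrates of Lox, the chains of type I and type III collagen and elastin, were scarce and did not pass. Col1a1 was at 2.79 ± 0.396 FPKM in LPS-MCM and 5.18 ± 3.19 FPKM in Hemin-MCM (-0.59 ± 0.26, SE; limma adjusted p = 0.15). Without the second Hemin-MCM library its mean in that group was 3.34 FPKM. Elastin, Eln, was at 1.93, 1.70 and 1.91 FPKM in LPS-MCM and at 2.01, 2.40 and 2.64 FPKM in Hemin-MCM. Its groups did not overlap, and its limma adjusted p was 0.102. Eln passed, as lower in LPS-MCM, when Hemin-MCM library 1 was left out (limma adjusted p 0.0466, and up to 0.353 over the other alternatives). The groups of Col1a1 and Col1a2 did not overlap either, with LPS-MCM lower, while those of Col3a1 did. Of all tested genes, 37.5% had groups without overlap.

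Of 17 tested genes of matrix proteins that bind lysyl oxidases or build elastic fibres, 5 were lower, 2 were higher and 10 did not pass (median -0.13). Fibronectin, Fn1, a scaffold for Lox and its protease, was at 77.8, 79.5 and 71.1 FPKM in LPS-MCM and at 128.6, 122.5 and 123.6 FPKM in Hemin-MCM. Its groups were far apart (-0.71 ± 0.05, SE; limma adjusted p = 1.49e-05). Fbln5, which brings elastin and Loxl1 together, was lower by a difference of -0.52 ± 0.08, and Ccn2, a matricellular protein, by -1.05 ± 0.05. Thbs1, thrombospondin 1, was higher (0.47 ± 0.06). The other calls of that list were Emilin1, higher, and Ltbp2 and Fmod, lower. Efemp2, which encodes fibulin 4, the protein that tethers Lox to tropoelastin, was abundant and did not pass, at 70.5 ± 5.90 and 72.3 ± 3.06 FPKM.

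Of the genes for cleavage of propeptides, whether of lysyl oxidases or of procollagens, and for its enhancers, 6 were tested. Of these, 1 was higher and 1 lower. Bmp1 was at 109.6, 105.5 and 98.3 FPKM in LPS-MCM and at 81.3, 86.0 and 80.8 FPKM in Hemin-MCM. It was higher in all 3 LPS-MCM libraries (0.33 ± 0.05, SE; limma adjusted p = 0.0017). Tll1 and Tll2, which encode related proteases, were under 1 FPKM in every library. Pcolce, an enhancer of procollagen cleavage by BMP1, was lower (-0.48 ± 0.13, SE; limma adjusted p = 0.0279). It lost that call under 6 of 11 alternatives (limma adjusted p 0.0073 to 0.1 over all of them): without LPS-MCM library 1 or 2, without Hemin-MCM library 2 or 3, without the minimum and under quantile normalization.

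Copper reaches lysyl oxidases in the secretory pathway through the pump ATP7A. Of 9 genes of copper handling, 1 was higher, 2 were lower and 6 did not pass. Atp7a itself was at 7.94 ± 0.620 and 6.99 ± 0.0758 FPKM and did not pass (0.16 ± 0.07, SE; limma adjusted p = 0.124), although it did under both other scalings, where the lowest adjusted p was 0.0362 (0.275 the highest over all its alternatives). Its relative Atp7b was lower in LPS-MCM (-0.64 ± 0.08, SE; limma adjusted p = 0.000473), and so was the metallothionein gene Mt1 (-0.30 ± 0.07). Slc31a2, which encodes a low-affinity copper transporter, was higher by 0.25 ± 0.07, a call lost under 6 of 11 alternatives (limma adjusted p 0.00257 to 0.0937), namely without the minimum and without any 1 library other than the third LPS-MCM one.

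Most other enzymes that prepare or crosslink collagen did not pass, and of all tested genes 20.5% were called in either direction. Of 17 genes of lysine and proline hydroxylation and collagen folding, 1 was lower and none was higher. The lower one was P4ha3, a prolyl hydroxylase subunit (-0.57 ± 0.05, SE; limma adjusted p = 5.96e-05), at 25.1 ± 0.441 and 37.9 ± 2.23 FPKM. Plod2, the hydroxylase that directs Lox crosslinks to the hydroxylysine type, did not pass, at 13.8 ± 0.688 and 14.9 ± 1.07 FPKM. Of 4 tested genes of other crosslinking enzymes 0 passed in limma, and 0 would at an unadjusted p under 0.05. Among them was transglutaminase 2, Tgm2, at 52.9 ± 4.24 and 53.5 ± 1.497 FPKM.

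Lox is a known target of hypoxia-inducible factors and of TGF-beta signalling. The part of either in the level of Lox was not tested. Of 11 tested genes of the hypoxia arm, 7 were higher in LPS-MCM and 0 were lower (median 0.19). Among all tested genes, 6.72% were higher and 13.8% lower. Hif1a, the oxygen-regulated subunit, was at 118.5, 113.5 and 127.3 FPKM in LPS-MCM and at 73.8, 72.4 and 67.7 FPKM in Hemin-MCM. The groups stood apart (0.74 ± 0.06, SE; limma adjusted p = 1.6e-05), as they did for Epas1, the gene of HIF-2alpha (0.69 ± 0.06), for Adm, adrenomedullin (0.96 ± 0.06), and for Bnip3 (0.55 ± 0.07). Vegfa, Slc2a1 and Ndrg1 were the other higher genes, and Pdk1, Egln1, Egln3 and Arnt did not pass. The list's count fell to 4 without the second Hemin-MCM library, where Vegfa had a limma adjusted p of 0.0528 (0.00445 the lowest over its alternatives). Slc2a1 (limma adjusted p 0.0169 to 0.153) and Ndrg1 (0.00996 to 0.135) lost their calls under 8 and 7 of 11 alternatives, among them without any 1 library other than the third LPS-MCM one.

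Of 13 genes of the TGF-beta arm, 3 were higher, 2 were lower and 8 did not pass (median 0.03). Tgfbr3, a co-receptor gene, was higher by 0.40 ± 0.07, Tgif1 by 0.33 ± 0.05 and Tgfb3 by 0.26 ± 0.06. The receptor gene Tgfbr2 was lower (-0.29 ± 0.06), and so was Tgfbr1, whose call was lost under 6 of 11 alternatives (limma adjusted p 0.00747 to 0.0823), by leaving out the minimum or any 1 library other than the third LPS-MCM one. Tgfb1 did not pass, at a difference of 0.03.

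Of the transcription factors tied to Loxl2 and Loxl3 in epithelial to mesenchymal transition, Snai1, Snai2, Twist1 and Twist2 had means under 1 FPKM. Of the 5 that were tested, Zeb2 was higher (0.30 ± 0.06, SE; limma adjusted p = 0.00566) and 4 did not pass.

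**Figure D5:**
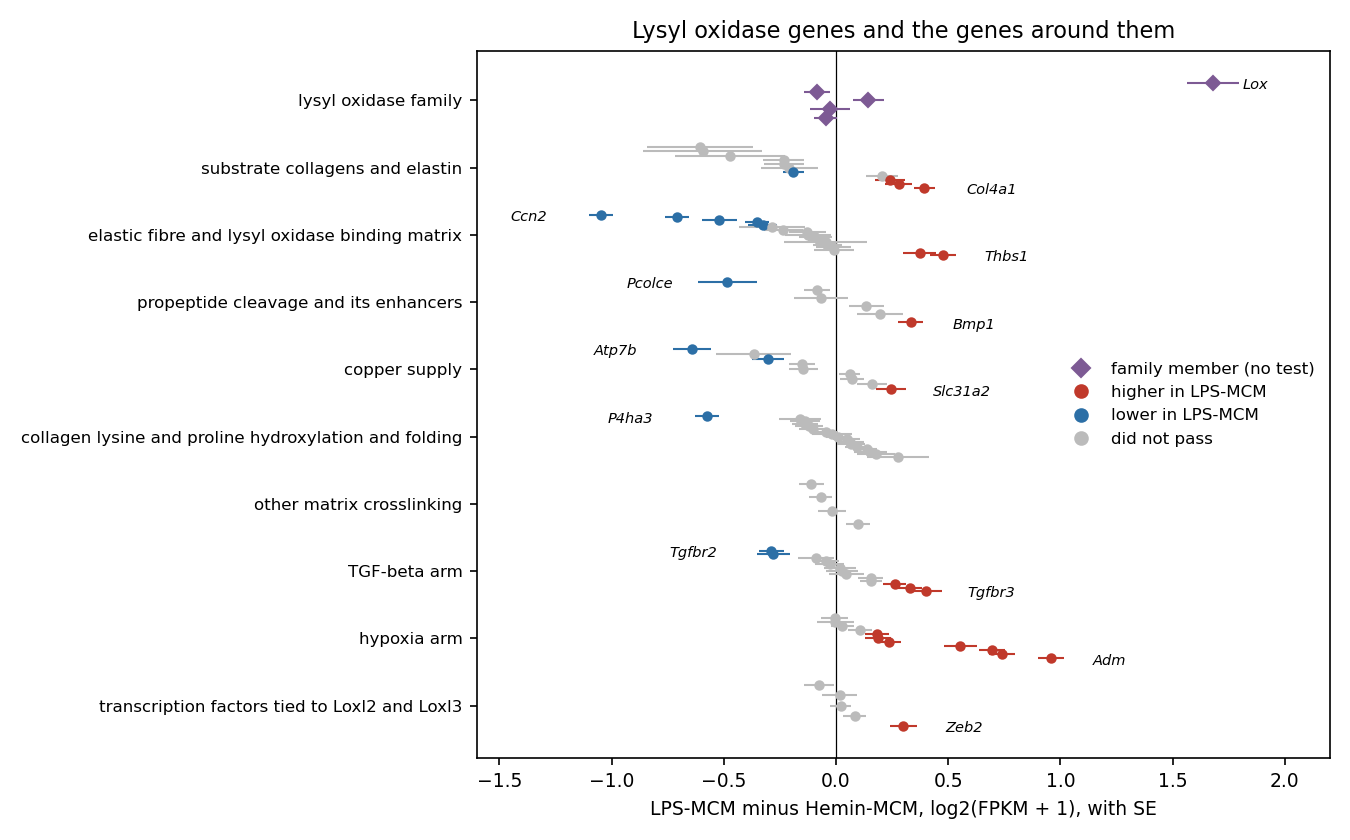
Difference between LPS-MCM and Hemin-MCM on the log2(FPKM + 1) scale with its SE (horizontal axis) for the 5 family members (purple, no test) and the 93 tested genes of the 9 lists (rows), with genes called higher in red, lower in blue and not passing in grey. Lox stands at 1.68, farther right than any list gene, of which Adm at 0.96 is next, and Ccn2 at -1.05 is farthest left.

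Cultures from newborn brain can hold other cells that express lysyl oxidases, above all fibroblasts of the meninges. Counts of called markers stand beside all tested genes, of which 6.72% were higher in LPS-MCM and 13.8% lower. Astrocyte markers were abundant, with a sum of 1225 to 1269 FPKM in LPS-MCM and 1492 to 1563 FPKM in Hemin-MCM, and S100b was the scarce one, under 2 FPKM on average. Of the 8, 4 were lower in LPS-MCM, Gfap (-0.57 ± 0.06), Aldh1l1, Slc1a3 and Gja1, Slc1a2, for a carrier of glutamate, went the other way (0.38 ± 0.05), and 3 did not pass. The calls of Aldh1l1 (limma adjusted p 0.00789 to 0.0999), Slc1a3 (0.0177 to 0.195) and Gja1 (0.00315 to 0.0516) were lost under 5, 8 and 1 of 11 alternatives. Leaving out Hemin-MCM library 3 ended all 3 calls, leaving out LPS-MCM library 1 or Hemin-MCM library 1 ended those of Aldh1l1 and Slc1a3, and leaving out LPS-MCM library 2 or Hemin-MCM library 2 ended that of Slc1a3. Of 7 tested fibroblast and meningeal markers, 2 were higher in LPS-MCM, Lum (1.23 ± 0.13) and Dcn (0.60 ± 0.11), and 2 were lower, Ogn (-0.74 ± 0.07) and Islr (-0.23 ± 0.05). Islr lost its call without Hemin-MCM library 3 (limma adjusted p 0.0566, and 0.00986 at the lowest over its alternatives). The 8 fibroblast markers of the list summed to 103.6 to 111 FPKM in LPS-MCM and 121.7 to 128.9 FPKM in Hemin-MCM, and Slc47a1 was at or near 0. Lum was at 7.80, 7.74 and 9.46 FPKM in LPS-MCM and 2.78, 3.93 and 2.33 FPKM in Hemin-MCM. Within Hemin-MCM the second library was the highest for Lum, Dcn and Col1a1, the lowest for Ogn and Islr, and in the middle for Pdgfrb and Foxc1.

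Among 8 markers of microglia and macrophages, LPS-MCM was lower in 7 (Itgam did not pass), where 13.8% of all tested genes were lower. The 8 markers summed to 199.5 to 227.4 FPKM in LPS-MCM against 368.1 to 371.7 FPKM in Hemin-MCM. Of the mural markers, the contractile genes Acta2 (-1.06 ± 0.07) and Tagln (-1.06 ± 0.06) were lower in LPS-MCM, while Rgs5, Kcnj8, Abcc9 and Des, which define mural cells, were all under 1 FPKM. Cspg4, also on that list, averaged under the minimum, at 0.711, 0.852 and 0.717 FPKM in LPS-MCM and 1.04, 1.34 and 1.16 FPKM in Hemin-MCM, without overlap. The 6 endothelial markers summed to at most 1.45 FPKM. Of the ependymal markers all 4 that were tested were lower, and their list summed to 153.5 to 163.3 FPKM against 215.5 to 224.2 FPKM. The part of these cells in the level of Lox was not tested.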

How the data were processed

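The authors deposited FPKM values of 17730 genes in 1 table. The submitters' processing notes list mm10 and DESeq. Which aligner, counter and annotation were used is not given in the sources used here. Each column was tied to a sample through its treatment word and number, and 3 further value columns, whose names match no sample, were not used. FPKM are not counts, so log2(FPKM + 1) was fitted for the 11688 genes averaging 1 FPKM or more with limma 3.58.1 in R 4.3.3 (1 mean per group, mean-variance trend, two-sided). The fit was tested on simulated data. Depth was estimated from steps between values under 0.3 FPKM with GENCODE vM21 lengths of 412 genes. Only 59.1% of 7298 such values lay within 0.1 step of a whole number (20% by chance), so reads were not recovered and the depth is approximate.

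Members and lists were chosen with earlier results of these data known. Named genes are all members, up to 4 called genes of smallest adjusted p per list, 11 fixed genes used where a list had fewer than 4 calls, the nearest profiles and the chromosome neighbours. Further list members named as examples, and all marker genes, were chosen after their values were seen. For 1 gene of the lists the result is not reported here, and list counts leave it out. The alternatives were another pseudocount (0.1), no minimum, 2 scalings, a replicate block and leaving out each library. RefSeq coordinates (GRCm38.p6, the build of mm10) were joined by gene identifier.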

Additional observations from a re-analysis of the deposited data

How the results depend on the processing

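The difference of Lox was between 1.57 and 1.84 over the 11 alternatives, highest without the second Hemin-MCM library and lowest without the first. Differences of Loxl1, Loxl2, Loxl3 and Loxl4, and every share of the family's FPKM, moved by less than 1 SD of the replicates under each alternative run. With 3 libraries a group, leaving out 1 library cannot move a difference or a mean share by 1 SD. Scaling a whole library by 1 factor cannot change a share. Dropping the minimum cannot change a member's difference, and the minimum, the pseudocount and the block do not enter a share. For those runs the outcome was fixed in advance, and no stability is read from it. Over all genes, the count of lower genes was 1614 and ran from 1058 (without the third Hemin-MCM library) to 1652 when 1 library was left out. Of the 54 called genes among the lists, markers and neighbours, 42 were called under all 11 alternatives and 0 changed sign. Over all tested genes, deviations of same-numbered libraries correlated at 0.0796, 0.107 and -0.106, so the numbers were not taken as pairing the samples. Those of differently numbered libraries correlated at -0.212 to 0.126. Entpd4b, a neighbour of Loxl2 under the minimum, did follow the number. It was at 1.39 and 1.40 FPKM in library 1 of LPS-MCM and Hemin-MCM and at 0.178 to 0.218 FPKM in the others. What sets this pattern was not tested. With the replicate block, 752 genes were higher and 1578 lower, and 3 of the 54 genes were not called. Col1a2 was called as lower there (limma adjusted p 0.0471, and up to 0.242 over the other alternatives). Each replicate number occurs in both groups, so the block cannot change a difference, and that of Lox stays 1.68 by design. With 3 libraries a group and Loxl4 near 1 FPKM, small differences of the scarce genes cannot be resolved.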
